A study of Mus musculus with 15 samples.

Results

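The 8 cytotoxic granule genes Gzma, Gzmb, Gzmk, Prf1, Nkg7, Ctsw, Serpinb9 and Serpinb6b were followed across 15 expression arrays of mouse splenic regulatory T cells, 9 of knockout cells that lacked Helios (Ikzf2), Eos (Ikzf4) or both and 6 of WT cells. The members were taken by their symbol in the platform annotation. Each had 1 probe set, and the 8 are part of 19938 genes that could be named from a probe set with a single symbol. 7 of the 8 passed the filter on low signal, and Gzmk did not.

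The cells were sorted from spleen as CD4+CD25+ (Treg) cells, and 15 ng of total RNA went onto each array. The groups were Ikzf2-/- (3 arrays), dKO, which lacks both Ikzf2 and Ikzf4 (3 arrays), Ikzf4-/- (3 arrays) and WT (6 arrays). The labels give no strain, age, sex, allele design or treatment, and do not say whether an array holds 1 animal or a pool, so the spread between arrays may in part be technical. The arrays fall into a pair of sets by the number of identical values that arrays share. The dKO and Ikzf4-/- arrays and WT 1 to 3 form the first set of 9 arrays, and Ikzf2-/- and WT 4 to 6 the second set of 6. Each knockout was therefore set against the WT arrays of its own set, and dKO against Ikzf4-/-. The members' group means of one set were not compared with those of the other, except in 1 alternative that pooled all WT arrays. Ranges over all 15 arrays describe the arrays and compare no groups.

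Cytotoxic lymphocytes kill by releasing granules onto a target cell. Perforin opens a way through the target's membrane, and granzymes, which are serine proteases, enter and cleave proteins there. Serpins of the B clade in the cytosol protect the killer cell from its own granzymes. Regulatory T cells can also make granzyme B and perforin, and in mouse both have been described as one of several routes by which they act on other lymphocytes. Helios and Eos are zinc finger transcription factors of the Ikaros family that are abundant in regulatory T cells.

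The cells carried regulatory T cell transcripts on every array. Foxp3, the lineage factor, lay between 10.10 and 11.16 on the log2 signal scale. The mean of 10 regulatory T cell markers, which include Ikzf2 and Ikzf4, was lowest on Ikzf2-/- 2. It was 9.01 there, against 9.41 to 9.71 on the others of the second set. That array also had the lowest mean of 7 T cell markers, at 10.40, against 10.57 to 10.70. Ikzf2 averaged 9.47 ± 0.51 in Ikzf2-/- cells and 10.33 ± 0.07 in WT 4 to 6 (SD, n = 3 each), a log2 difference of -0.86 (SE 0.20, limma adjusted p = 0.0885). It averaged 10.29 ± 0.27 in dKO cells and 10.65 ± 0.17 in WT 1 to 3 (SD, n = 3 each). The log2 difference was -0.37 (SE 0.20, limma unadjusted p = 0.095), and -0.38 (SE 0.20) in dKO against Ikzf4-/-, both with overlapping groups. Ikzf4 signal averaged 8.18 ± 0.05 in Ikzf4-/- cells, 8.13 ± 0.07 in dKO cells and 7.97 ± 0.12 in WT 1 to 3 (SD, n = 3 each). The targeted transcripts are therefore not lost on these arrays, the Ikzf4 probe set is not lower in the arrays labelled Ikzf4-/-, and the sources used here do not say where its probes lie relative to the deleted part. Signal of B cells and neutrophils was highest on 1 array of each set. The mean of 12 B cell markers was 7.93 on Ikzf2-/- 3, against 5.45 to 6.51 on the others of the second set, and 6.99 on WT 1, against 4.91 to 5.25 on the others of the first. The mean of 8 neutrophil markers was 8.68 on Ikzf2-/- 3, against 4.79 to 6.31, and 6.57 on WT 1, against 4.29 to 5.56. It was also higher on every Ikzf2-/- array (5.71 to 8.68) than on every WT array of its set (4.79 to 5.33). Both arrays, Ikzf2-/- 3 and WT 1, were kept. Other markers peaked elsewhere. The mean of 2 CD8 T cell markers was highest on Ikzf2-/- 2 (6.00) and on WT 3 (6.08). The NK cell marker mean was highest on Ikzf2-/- 1 (4.99) in the second set and on WT 1 (4.99) in the first.

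No member passed the test in any comparison. The test was limma's moderated test on the deposited log2 values, with Benjamini-Hochberg adjustment over 10834 genes and a threshold of 0.05. For Ikzf2-/- against WT 4 to 6, 0 of 7 tested members passed, against 0.0646% of all genes, and 1 (Serpinb6b) had an unadjusted p under 0.05, against 16.4% of all genes. For Ikzf4-/- against WT 1 to 3 the count was 0 of 7, against 0% of all genes, with 0 of 7 under an unadjusted 0.05, against 2.15%. For dKO against WT 1 to 3 it was 0 of 7, against 0.0646%, with 2 (Ctsw and Serpinb9) under an unadjusted 0.05, against 4.32%. For dKO against Ikzf4-/- it was 0 of 7, against 0.0277%, with 1 (Ctsw) under an unadjusted 0.05, against 3.49%. For the change with Ikzf2 loss in Ikzf4-deficient cells minus that with Ikzf2 loss alone it was 0 of 7, against 0%, with 1 (Ctsw) under an unadjusted 0.05, against 6.29%. This contrast takes its first change from the first set of arrays and its other change from the second set. Ikzf4 loss and array set therefore cannot be told apart in it. The median difference of the 7 members was 0.11 in Ikzf2-/- against WT 4 to 6 (0.022 over all genes), 0.05 in Ikzf4-/- against WT 1 to 3 (0.007), 0.10 in dKO against WT 1 to 3 (0.005) and -0.02 in dKO against Ikzf4-/- (-0.001). The comparisons against WT 1 to 3 share those arrays, and both dKO comparisons share the dKO arrays, so their values are not independent of each other.

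Without WT 1 and Ikzf2-/- 3, the Ikzf2-/- minus WT difference was -0.43 for Gzma, 0.47 for Gzmb, -0.11 for Prf1, -0.12 for Nkg7, 0.04 for Ctsw, 0.03 for Serpinb9 and 0.24 for Serpinb6b. With both arrays it was -0.03 for Gzma, 0.87 for Gzmb, -0.05 for Prf1, 0.13 for Nkg7, 0.11 for Ctsw, -0.03 for Serpinb9 and 0.34 for Serpinb6b. In the first set the values that moved by over 1.5 times were Gzmb and Serpinb6b in Ikzf4-/- minus WT, at 0.15 and 0.12 (-0.08 and 0.07 with all arrays), and Serpinb6b in dKO minus WT, at 0.15 (0.10 with all arrays). No member passed the test without these arrays.

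**Figure D1:**
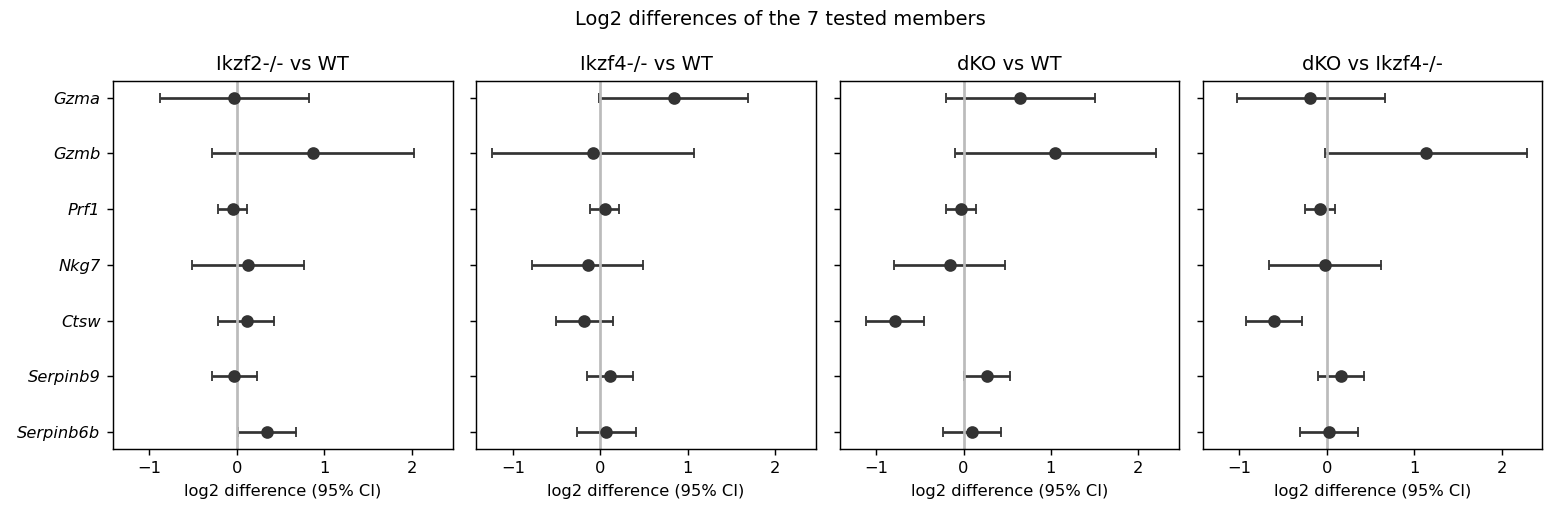
Log2 differences of the 7 tested members in the 4 comparisons, the group named first minus the group named second. Points are limma estimates, bars their 95% confidence intervals and the vertical line marks 0. The Ctsw intervals in both dKO comparisons lie below 0, at -1.11 to -0.45 against WT and -0.93 to -0.28 against Ikzf4-/-, and the Gzma and Gzmb intervals are several times as wide as those of Prf1.

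Although no member passed, single members separated the groups. 3 of 7 members did not overlap between dKO and WT 1 to 3 (Gzmb and Serpinb9 higher, Ctsw lower), against 9.52% of all genes. 2 of 7 did not overlap between dKO and Ikzf4-/- (Gzmb higher, Ctsw lower), against 8.27%. 1 of 7 did not overlap between Ikzf4-/- and WT 1 to 3 (Gzma, higher), against 6.52%. 0 of 7 did so between Ikzf2-/- and WT 4 to 6, against 16.2%. In bulk RNA, fewer cells that make a transcript and less transcript per cell cannot be told apart.

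Ctsw had the smallest p of the members. It encodes cathepsin W, a cysteine protease found mainly in cytotoxic T cells and NK cells. Its probe set 10465059 measures a gene on chromosome 19. The log2 signal was 7.54, 7.09 and 6.96 in dKO cells, 7.98, 7.69 and 7.73 in Ikzf4-/- cells and 7.98, 8.23 and 7.72 in WT 1 to 3. Each dKO array lay below each Ikzf4-/- and each WT array of its set, while the Ikzf4-/- and WT arrays overlapped. The dKO mean was 0.583 of the WT mean on the linear scale, a log2 difference of -0.78 (SE 0.15, unadjusted p = 0.000169, limma adjusted p = 0.153). Over 27 alternative settings the adjusted p ran between 0.0415 and 0.913, and it passed the threshold under 1 of them, array weights, at a log2 difference of -0.81. The highest adjusted p belonged to the pooled WT arrays, against which the dKO difference was -0.06; pooling puts WT arrays of the second set, at 6.45 to 6.59, beside those of the first. Against Ikzf4-/- the dKO difference was -0.60 (SE 0.15, unadjusted p = 0.00149, limma adjusted p = 0.612). Ikzf4-/- minus WT gave -0.18 (95% confidence interval -0.50 to 0.15).

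In the second set, Ctsw was 6.60, 6.54 and 6.76 in Ikzf2-/- cells and 6.55, 6.45 and 6.59 in WT 4 to 6. The groups overlapped, with a log2 difference of 0.11 (95% confidence interval -0.22 to 0.43). The change with Ikzf2 loss in Ikzf4-deficient cells minus the change with Ikzf2 loss alone was -0.71 (SE 0.22, unadjusted p = 0.00553, limma adjusted p = 0.767), so the difference between the contrasts did not pass. These changes come from different array sets, so Ikzf4 loss and array set cannot be told apart here. Cd8b1, a chain of the CD8 receptor and the only tested marker of CD8 T cells, was also lower on average in dKO cells. Its log2 signal was 7.04, 6.59 and 6.46 in dKO cells, 6.95, 7.10 and 6.85 in Ikzf4-/- cells and 7.09, 7.03 and 7.38 in WT 1 to 3. The dKO difference from WT 1 to 3 was -0.47 (SE 0.25, limma adjusted p = 1), and the groups overlapped. Array by array, the order of Cd8b1 followed that of Ctsw within dKO, was the opposite of it within WT 1 to 3, and put Ikzf4-/- 2 highest for Cd8b1 and lowest for Ctsw. In the second set Ikzf2-/- 2 had the highest Cd8b1 (7.31, against 6.06 to 6.12 on the other 5 arrays) and the lowest Ctsw of its group. Cd8a lay between 4.04 and 4.78 on all 15 arrays and did not pass the filter. The part of CD8 T cells in the Ctsw values was not tested.

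**Figure D2:**
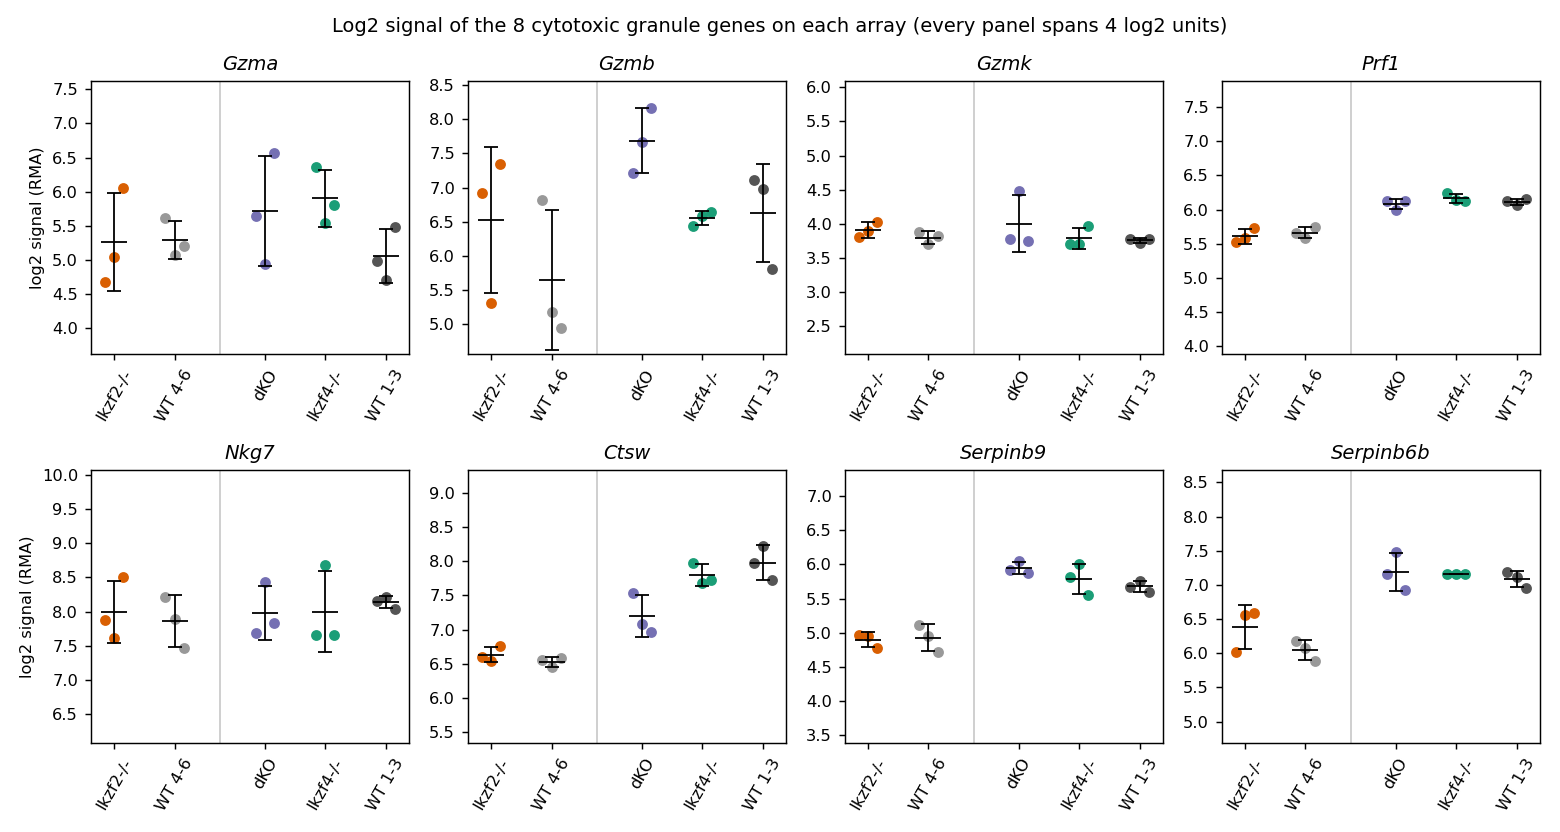
Log2 signal of the 8 members on each array, 1 panel a gene, each panel spanning 4 log2 units. Points are arrays, long bars are group means and whiskers are 1 SD (n = 3), and the grey line parts the second set on the left from the first on the right. Gzmb spreads over up to 2.03 and Gzma over up to 1.61 log2 units within a group, Prf1 over at most 0.21, and the Ctsw points of dKO lie below those of Ikzf4-/- and WT 1-3.

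Gzmb encodes granzyme B, the aspartate-specific protease that cleaves caspases and Bid in target cells. It is measured by probe set 10420308 on chromosome 14. The 250 bases before its start are shown with those of Prf1 because these 2 genes are the granzyme B and perforin pair. Their windows share TGTGGT but not TGGGAA, the motifs explained below. The letters are from RefSeq (GRCm38.p6), read on the gene's own strand, minus for Gzmb at chr14:56262335-56262584 and plus for Prf1 at chr10:61297586-61297835. Capitals mark TGGGAA, the core motif of Ikaros family factors, and TGTGGT, the core motif of RUNX factors, each searched on both strands (TTCCCA and ACCACA are the reverse complements).

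Gzmb: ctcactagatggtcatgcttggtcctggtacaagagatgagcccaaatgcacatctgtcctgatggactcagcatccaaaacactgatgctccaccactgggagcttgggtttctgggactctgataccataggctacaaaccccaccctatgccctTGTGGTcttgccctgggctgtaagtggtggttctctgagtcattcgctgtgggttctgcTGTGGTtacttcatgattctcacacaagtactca

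Prf1: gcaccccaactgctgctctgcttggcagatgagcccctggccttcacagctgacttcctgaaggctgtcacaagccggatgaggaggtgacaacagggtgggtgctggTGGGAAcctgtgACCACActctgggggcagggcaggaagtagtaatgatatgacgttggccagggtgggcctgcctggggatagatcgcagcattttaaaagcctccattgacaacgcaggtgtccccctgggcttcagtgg

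TGTGGT occurred 2 times in the Gzmb window, which holds no TGGGAA, and each motif occurred 1 time in the Prf1 window, TGTGGT as its reverse complement. 7 of the 8 members had a window in the table. TGGGAA was in 3 of these 7 (Prf1, Serpinb9 and Serpinb6b), and in 21.5% of the windows of 27025 genes. TGTGGT was in 4 of the 7 (Gzma, Gzmb, Prf1 and Nkg7), and in 14.2% of all windows. A match describes the letters and does not show that a factor binds.

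The log2 signal of Gzmb was 7.22, 7.67 and 8.17 in dKO cells, 6.44, 6.58 and 6.64 in Ikzf4-/- cells and 7.11, 6.98 and 5.81 in WT 1 to 3. All dKO arrays lay above all Ikzf4-/- and WT arrays of the set, with dKO 1 at 7.22 only just above WT 1 at 7.11. The dKO mean was 2.07 times the WT mean (log2 difference 1.05, SE 0.54, limma adjusted p = 1) and 2.19 times the Ikzf4-/- mean (1.13, SE 0.54, limma adjusted p = 1). Ikzf4-/- minus WT gave -0.08 (95% confidence interval -1.24 to 1.07). Without WT 3, the lowest array of its group, the difference from WT was 0.64. In the second set Gzmb was 6.92, 5.31 and 7.34 in Ikzf2-/- cells and 6.82, 5.18 and 4.95 in WT 4 to 6. Both groups held low and high arrays and they overlapped. The log2 difference was 0.87 (SE 0.54, limma adjusted p = 0.449), and it was 0.47 without Ikzf2-/- 3 and 1.48 without Ikzf2-/- 2. Ikzf2-/- 3 is the array with the highest B cell and neutrophil marker means, and Ikzf2-/- 2 had the lowest array weight of the 15, at 0.126. The change with Ikzf2 loss in Ikzf4-deficient cells minus that with Ikzf2 loss alone was 0.26 (95% confidence interval -1.37 to 1.89). Here too Ikzf4 loss and array set cannot be told apart.

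The spread of Gzmb within groups was larger than that of nearly all genes. Its pooled within-group SD was 0.766 log2 units, at percentile 99.5 of the tested genes, whose median SD was 0.151. Gzma (0.56, percentile 99.0) and Nkg7 (0.417, percentile 97.5) also varied more than most genes, while Prf1 (0.074, percentile 5.6) was among the steadiest. With 3 arrays a group and an SE of 0.54, a 2-fold difference in Gzmb could not be told from 0. Plotted by size and error, Gzmb therefore lies far to the right of most genes and Ctsw among genes of ordinary error.

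**Figure D3:**
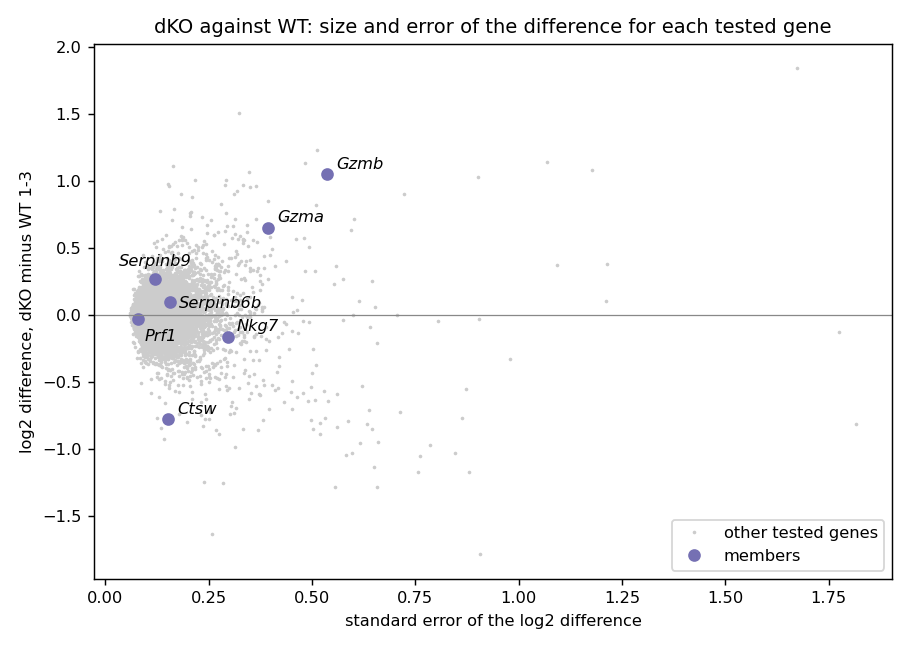
Log2 difference of dKO minus WT 1-3 (vertical axis) against its standard error (horizontal axis) for each tested gene. Large points are the 7 tested members and small points the other tested genes. Gzmb lies at 1.05 with an SE of 0.54, Ctsw at -0.78 with an SE of 0.15 and Prf1 at -0.03 with an SE of 0.08.

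Gzma encodes granzyme A, a tryptase-type granzyme, measured by probe set 10412211 on chromosome 13. Its log2 signal was 5.65, 4.95 and 6.56 in dKO cells, 6.36, 5.55 and 5.80 in Ikzf4-/- cells and 4.99, 4.71 and 5.49 in WT 1 to 3. The Ikzf4-/- arrays lay above the WT arrays, whose highest value was close to the lowest of Ikzf4-/-, and the dKO arrays spread across both. The Ikzf4-/- difference from WT was 0.84 (SE 0.39, limma adjusted p = 1) and the dKO difference 0.65 (SE 0.39, limma adjusted p = 1), which was 0.23 without dKO 3 and 1.04 without dKO 2. In the second set Gzma was 4.68, 5.04 and 6.06 in Ikzf2-/- cells and 5.61, 5.07 and 5.20 in WT 4 to 6, and the groups overlapped, with a difference of -0.03 (95% confidence interval -0.88 to 0.82). The highest of these was again Ikzf2-/- 3.

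Gzmk encodes granzyme K, a tryptase-type granzyme beside Gzma on chromosome 13 (probe set 10412218). It did not pass the filter, which asks that some genotype mean exceed the median probe set level of 4.96: its highest group mean was 4.00, in dKO cells, and it was given no test. 14 of its 15 values lay between 3.70 and 4.03, and the remaining one was 4.48 on dKO 2. Klrd1, an NK cell receptor chain named after its values were seen, also did not pass the filter. On dKO 2 it was 5.48, against 3.54 to 4.63 on the other 8 arrays of the set. The mean of 19 NK cell markers, Klrd1 included, did not stand out on dKO 2. It was 4.88 there, between the lowest of the set (4.69, WT 2) and the highest (4.99, WT 1). 11 of the 19 did not pass the filter, so this mean could miss a rise of single markers. Gzma on dKO 2 was the lowest of its group, at 4.95. Gzmb on dKO 2 was 7.67, above all Ikzf4-/- and WT arrays of the set, as on the other dKO arrays. The part of NK cells in these values was not tested.

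Prf1 encodes perforin, the pore-forming protein, measured by probe set 10363475 on chromosome 10. Its log2 signal was 6.12, 6.00 and 6.12 in dKO cells, 6.24, 6.14 and 6.12 in Ikzf4-/- cells and 6.12, 6.07 and 6.15 in WT 1 to 3. The 3 groups overlapped. It was 5.52, 5.58 and 5.73 in Ikzf2-/- cells and 5.66, 5.59 and 5.74 in WT 4 to 6, again overlapping. The differences were -0.05 (95% confidence interval -0.22 to 0.12) in Ikzf2-/- against WT, 0.05 (-0.12 to 0.22) in Ikzf4-/- against WT, -0.03 (-0.20 to 0.14) in dKO against WT, and dKO minus Ikzf4-/- gave -0.08 (-0.25 to 0.09). None of these intervals reaches beyond 0.25 log2 units either way. The deposited value 6.12 was the same to the last digit on 4 arrays, WT 1, Ikzf4-/- 3, dKO 1 and dKO 3. Such equal values within the first set occurred in 54.3% of tested genes, so small spreads there may be understated.

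Nkg7 encodes a granule membrane protein that takes part in granule release in NK cells and CD8 T cells, measured by probe set 10552406 on chromosome 7. Its log2 signal was 7.68, 8.43 and 7.83 in dKO cells, 7.66, 8.68 and 7.66 in Ikzf4-/- cells and 8.16, 8.22 and 8.04 in WT 1 to 3. In both knockouts 1 array was high and 2 were low, with the WT arrays between. It was 7.87, 7.61 and 8.50 in Ikzf2-/- cells and 8.22, 7.89 and 7.47 in WT 4 to 6, which overlapped. The 4 differences lay between -0.16 and 0.13 (SE 0.30 each, limma adjusted p between 0.875 and 1).

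The last 2 members are serpins. Serpinb9 encodes the mouse serpin that inhibits granzyme B, measured by probe set 10404429 on chromosome 13. Its log2 signal was 5.92, 6.05 and 5.88 in dKO cells, 5.81, 6.00 and 5.55 in Ikzf4-/- cells and 5.67, 5.76 and 5.60 in WT 1 to 3. The dKO arrays lay above the WT arrays and overlapped with Ikzf4-/-. The dKO difference from WT was 0.27 (SE 0.12, unadjusted p = 0.0421, limma adjusted p = 1). Serpinb9 was 4.97, 4.95 and 4.77 in Ikzf2-/- cells and 5.11, 4.95 and 4.72 in WT 4 to 6, a difference of -0.03 (95% confidence interval -0.29 to 0.23).

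Serpinb6b encodes another clade B serpin of the granzyme-inhibiting group, measured by probe set 10404422 beside Serpinb9 on chromosome 13. Its log2 signal was 6.02, 6.56 and 6.59 in Ikzf2-/- cells and 6.18, 6.07 and 5.89 in WT 4 to 6. 2 of the Ikzf2-/- arrays lay above all WT arrays and Ikzf2-/- 1 lay among them. The difference was 0.34 (SE 0.16, unadjusted p = 0.0471, limma adjusted p = 0.298). It was 0.03 (adjusted p = 0.939) with array weights, which gave Ikzf2-/- 2 a weight of 0.126 and Ikzf2-/- 3 a weight of 0.363, and 0.53 (adjusted p = 0.0549) without Ikzf2-/- 1. It was 7.16, 7.48 and 6.92 in dKO cells, 7.16 on all 3 Ikzf4-/- arrays and 7.19, 7.11 and 6.96 in WT 1 to 3. These groups overlapped, with differences of 0.02 between dKO and Ikzf4-/-, 0.10 between dKO and WT and 0.07 between Ikzf4-/- and WT (SE 0.16 each).

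Members varied together only in part. After each gene's mean within a set was taken out, the Pearson correlation over the 15 arrays was 0.67 between Gzma and Prf1, 0.41 between Gzmb and Nkg7, and -0.31 between Gzmb and Ctsw. These are descriptions of arrays that share processing, and genotype differences are still in them. The 3 genes whose pattern was most like that of Gzmb were Icos, an activation-induced costimulatory receptor (0.91), Cd48, a ligand of SLAM family receptors (0.90), and Ccr4, a chemokine receptor (0.89). For Nkg7 the closest was Tigit, a coinhibitory receptor (0.86). For Ctsw they were Rasl11b and Mettl26 (0.88 each).

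The other genes of cytotoxicity gave 0 or 1 call a list. Of 7 other granzymes 2 passed the filter, Gzmc and Gzmm, and 0 passed the test. Gzmc, a close relative of neighbouring granzyme genes whose probes may share signal, averaged 4.71 in Ikzf2-/- cells and 4.46 in WT 4 to 6, a difference of 0.24 (SE 0.09, limma adjusted p = 0.181). All 11 genes of granule processing and storage were tested and 0 passed, with a median difference of 0.02 in dKO against WT. Of 14 tested genes of granule release 0 passed. Sytl2, which tethers secretory granules to the membrane through Rab27, was 7.37, 7.66 and 7.71 in dKO cells, 7.16, 7.17 and 7.13 in Ikzf4-/- cells and 6.93, 7.15 and 6.86 in WT 1 to 3. Its dKO arrays lay above the rest of the set, with a difference from WT of 0.60 (SE 0.15, limma adjusted p = 0.376). It was 7.30, 6.62 and 6.95 in Ikzf2-/- cells and 6.56, 6.58 and 6.36 in WT 4 to 6, a difference of 0.45 (SE 0.15, limma adjusted p = 0.158), with no overlap. Stx11, a syntaxin needed for granule fusion, differed by 0.48 between dKO and Ikzf4-/- (SE 0.14, limma adjusted p = 0.921).

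Of 8 measured other serpins and inhibitors, 2 passed the filter and 0 passed the test. Serpinb6a was 7.15, 6.95 and 6.86 in Ikzf2-/- cells and 6.56, 6.21 and 5.75 in WT 4 to 6. The groups did not overlap, and the difference was 0.81 (SE 0.18, limma adjusted p = 0.0823). Serpinb1a, an inhibitor of neutrophil proteases, was 7.02 on Ikzf2-/- 3, against 4.17 to 4.57 on the others of the second set, and 6.18 on WT 1, against 3.71 to 4.17 on the others of the first. These arrays also had the highest neutrophil marker mean of their set.

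Killing that does not need granules was covered by 6 tested genes, of which 0 passed. Tnfsf10, which encodes the death ligand TRAIL, was 7.84, 8.16 and 7.78 in dKO cells, 6.91, 7.50 and 6.98 in Ikzf4-/- cells and 7.25, 7.12 and 6.77 in WT 1 to 3. It was 7.36, 6.64 and 7.36 in Ikzf2-/- cells and 6.46, 6.51 and 6.18 in WT 4 to 6. In both sets the arrays labelled as lacking Ikzf2 lay above the others. The difference was 0.88 in dKO against WT (SE 0.21, limma adjusted p = 0.356) and 0.73 in Ikzf2-/- against WT (SE 0.21, limma adjusted p = 0.127). Of 11 tested regulators of cytotoxic genes 1 passed in dKO against WT, against 0.0646% of all genes, and 0 passed in the other comparisons. Il18r1, which encodes a subunit of the receptor for IL-18, fell by 0.77 in dKO against WT (SE 0.12, limma adjusted p = 0.0438). It was past the threshold in 3 of 15 fits that left out 1 array (without WT 4, WT 5 or Ikzf2-/- 2), with an adjusted p between 0.0213 and 0.233, and not with the replicate number as a block (adjusted p = 0.0502). Nor did it pass with no filter (limma adjusted p = 0.0679), repeated quantile normalization (0.0503), equal medians (0.0646), only the groups compared (0.158) or without WT 1 and Ikzf2-/- 3 (0.217). It passed with a stricter filter, array weights, the mean over probe sets, pooled WT arrays, trend and robust settings, and the first set alone. Id2, an inhibitor of E proteins, differed by 0.76 (SE 0.29) and Tbx21, which encodes T-bet, by 0.35 (SE 0.15) in the same comparison (limma adjusted p = 1 each). Eomes and Runx3, known in mouse as drivers of Prf1 and Gzmb in CD8 T cells, differed by -0.10 (SE 0.20) and -0.11 (SE 0.15).

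**Figure D4:**
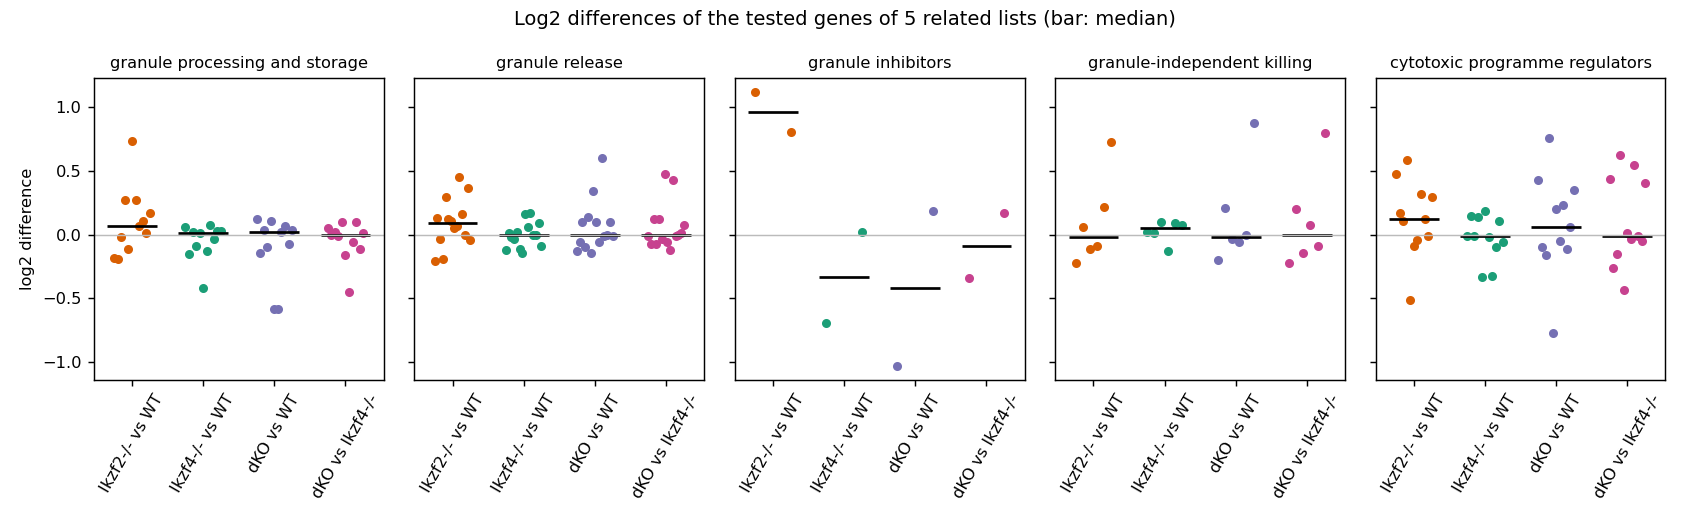
Log2 differences of the tested genes of 5 related gene lists in the 4 comparisons, the group named first minus the group named second. Points are genes and black bars medians. The medians lie near 0 for the lists of 6 or more genes, the granule inhibitors rest on 2 genes, and the top points of the release and granule-independent lists in dKO against WT are Sytl2 at 0.60 and Tnfsf10 at 0.88.

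NK cells, CD8 T cells and other cells carry many of these transcripts, so their markers are set beside the members. Of 19 measured NK cell markers 8 passed the filter and 0 passed the test in any comparison. The mean of the 19 was 4.88 to 4.99 in Ikzf2-/- cells and 4.74 to 4.79 in WT 4 to 6, and 4.80 to 4.90 in dKO cells, 4.77 to 4.88 in Ikzf4-/- cells and 4.69 to 4.99 in WT 1 to 3. The defining markers Ncr1 (3.60 to 4.15) and Klrb1c (3.58 to 4.44) did not pass the filter. Klrg1, which regulatory T cells also express, was among those tested and differed by 0.71 in dKO against WT (SE 0.43, limma adjusted p = 1). In Ikzf2-/- against WT 4 to 6, 6 of the 8 tested NK cell markers differed by more than 0. Tyrobp and Fcer1g, signalling adaptors that myeloid cells share with NK cells, differed by 0.62 (SE 0.36, limma adjusted p = 0.427) and 0.61 (SE 0.28, limma adjusted p = 0.298), the second without overlap. Klrg1 differed by 0.68 (SE 0.43, limma adjusted p = 0.472) and Klrb1f by -0.42 (SE 0.17, limma adjusted p = 0.237), both with overlap. Klrd1, under the filter and without a test, was 4.63, 5.54 and 4.60 in Ikzf2-/- cells and 4.01, 4.31 and 4.11 in WT 4 to 6, without overlap. Of other markers without a test, Klrc1 differed by 0.47, Ncr1 by -0.07, Klrb1c by -0.09 and Klrc2 by -0.11, the last without overlap.

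4 marker list means were higher on every Ikzf2-/- array than on every WT array of the second set. Besides the NK cell and neutrophil lists, these were the 9 macrophage and dendritic cell markers, at 4.94 to 5.25 in Ikzf2-/- cells and 4.71 to 4.93 in WT 4 to 6, and the 7 mast cell and basophil markers, at 3.93 to 4.13 in Ikzf2-/- cells and 3.79 to 3.91 in WT 4 to 6. Of these, 6 of the 9 and 6 of the 7 did not pass the filter. In the last list Mcpt8 differed by 0.77, Fcer1a by 0.23, Cpa3 by 0.01 and Kit by -0.08. Of all single genes, 16.2% did not overlap in this comparison, in either direction. Of 7 tested neutrophil markers 0 passed and all 7 differed by more than 0, with a median of 1.91, against 0.022 over all genes. Ltf, Lcn2 and Mpo passed the filter only through their Ikzf2-/- means (5.04, 5.61 and 5.32), so the filter in part fixed this count and median. B cell markers overlapped, at 5.45 to 7.93 in Ikzf2-/- cells and 5.75 to 6.00 in WT 4 to 6. The Gzmb, Serpinb6b and Serpinb6a means were higher in the same group, and the part of other cells in these differences was not tested.

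**Figure D5:**
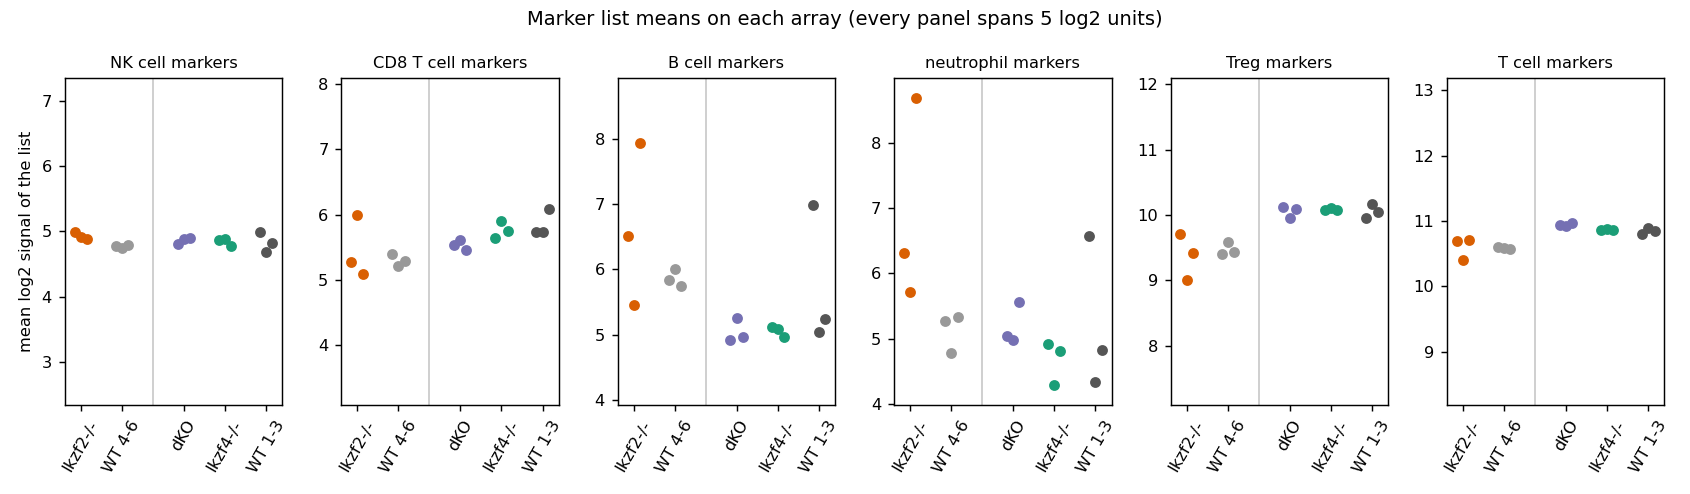
Mean log2 signal of 6 marker gene lists on each array, each panel spanning 5 log2 units. Points are arrays by group, with the second set left of the grey line and the first right of it. Ikzf2-/- 3 and WT 1 stand out for B cell markers (7.93 and 6.99) and neutrophil markers (8.68 and 6.57), every Ikzf2-/- array lies above WT 4-6 for neutrophil and NK cell markers, and NK cell markers lie between 4.69 and 4.99 on all arrays.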

How the data were processed

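Total RNA of sorted splenic CD4+CD25+ cells was amplified and labelled with biotin, and hybridised to Affymetrix arrays. The authors deposited log2 RMA signals for 35556 probe sets, made with Affymetrix Expression Console 1.3.1 per the submitters' processing notes; the sources used here name no genome build for the array design. The number of arrays limits the precision.

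Genes were named from the platform annotation through probe sets with a single symbol (21789 of 35556; 1621 had several and 12146 none), taking the brightest per gene. A gene was tested where 1 of the 4 genotype means exceeded 4.96, the median of all probe set means. limma 3.58.1 in R 4.3.3 fitted 5 group means (WT 1 to 3 and WT 4 to 6 apart) over all 15 arrays, with Benjamini-Hochberg adjustment over 10834 genes. The procedure was tested on simulated data. The members and gene lists were chosen with earlier results of these data known. Named are the members, Ikzf2, Ikzf4, Ncr1, Klrb1c, Cd8a and Cd8b1 and, from each other list, genes past the threshold and up to 4 with the largest absolute difference per comparison; the genes most like a member are those with the highest correlation. Klrd1 and Foxp3 were named after their values were seen. Klrc1, Klrc2, Fcer1a, Cpa3, Kit and Ltf are also named outside this rule. Settings were varied for the filter, scaling, probe set choice, fit, WT arrays and arrays left out; "set 1 alone" was added after seeing the data.

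Replicate numbers recur across groups. Correlations of same-numbered arrays' deviations from their group means were 0.135, 0.218 and 0.306 for Ikzf4-/- and WT 1 to 3. They were 0.43, 0.197 and 0.267 for dKO and Ikzf4-/-, and 0.071, 0.046 and 0.172 for dKO and WT 1 to 3. All were positive. Differently numbered arrays were not set beside them, so these values do not show whether the numbers pair arrays. The labels state no pairing.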

Additional observations from a re-analysis of the deposited data

Results flagged for a closer look

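Ctsw, which encodes cathepsin W, differed in direction between the contrasts that remove Ikzf2. All 3 dKO arrays lay below the Ikzf4-/- mean, and all 3 Ikzf2-/- arrays lay above the mean of WT 4 to 6. The change with Ikzf2 loss in Ikzf4-deficient cells minus that with Ikzf2 loss alone was -0.71 on the log2 scale (SE 0.22, limma adjusted p = 0.767, range 0.286 to 0.997 over 23 alternatives), so the test of the difference did not pass. The second contrast was small, at 0.11, with overlapping groups. These contrasts come from different array sets, so Ikzf4 loss and array set cannot be told apart.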

How the results depend on the processing

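The 7 tested members were recomputed in 5 contrasts under up to 27 settings, which gave 895 alternative differences. 843 of these kept their direction and their side of the threshold, 51 had the opposite sign with none past the threshold, and 1 passed it: Ctsw in dKO against WT with array weights, so that 1 member was called there and 0 in the other settings. The opposite signs belong to differences that were small beside their errors or to the pooled WT arrays, which mix the array sets by construction. With all 6 WT arrays pooled, Ctsw was -0.62, Gzma 0.0832, Nkg7 -0.0088 and Serpinb6b -0.18 in Ikzf2-/- against WT, Ctsw was 0.55 and Gzmb 0.41 in Ikzf4-/- against WT, and Ctsw was -0.06 and Prf1 0.19 in dKO against WT. In Ikzf2-/- against WT, repeated quantile normalization gave 0.0058 for Gzma and 0.0207 for Serpinb9, equal array medians gave 0.0188 and 0.0171, and array weights gave -0.026 for Nkg7 and 0.03 for Serpinb6b. Without WT 1 and Ikzf2-/- 3 together, the signs turned for Nkg7 at -0.12 and Serpinb9 at 0.0295 in Ikzf2-/- against WT, and for Gzmb at 0.15 in Ikzf4-/- against WT. For the change with Ikzf2 loss in Ikzf4-deficient cells minus that with Ikzf2 loss alone, leaving out both arrays gave 0.24 for Gzma, 0.10 for Nkg7 and 0.0293 for Prf1, and array weights gave 0.12 for Gzma and 0.0209 for Nkg7.

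With 1 array left out in turn, the differences ran between -0.43 and 0.26 for Gzma, -0.12 and 0.32 for Nkg7 and -0.13 and 0.0588 for Serpinb9 in Ikzf2-/- against WT. They ran between -0.49 and 0.15 for Gzmb and -0.48 and 0.0276 for Nkg7 in Ikzf4-/- against WT, and between -0.0522 and 0.0085 for Prf1 and -0.0487 and 0.23 for Serpinb6b in dKO against WT. In dKO against Ikzf4-/- they ran between -0.61 and 0.20 for Gzma, -0.24 and 0.32 for Nkg7 and -0.12 and 0.16 for Serpinb6b. For the difference of the Ikzf2-loss changes they ran between -0.57 and 0.24 for Gzma, -0.35 and 0.67 for Gzmb, -0.37 and 0.19 for Nkg7 and -0.0751 and 0.0293 for Prf1.

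The number of all genes past the threshold depended on the settings. It was 7 for Ikzf2-/- against WT, and 2 with no filter, 12 after repeated quantile normalization, 1 with equal medians, 0 with only the groups compared, 66 with array weights, 0 with pooled WT, 3 without WT 1 and Ikzf2-/- 3, and 0 to 404 with 1 array left out, the highest without Ikzf2-/- 1. It was 7 for dKO against WT, and 0 with no filter or equal medians, 1 with only the groups compared, 22 with array weights, 4 with pooled WT, 1 with the replicate number as a block, 2 without both arrays, and 0 to 9 with 1 array left out, the highest without Ikzf2-/- 2. It was 3 for dKO against Ikzf4-/-, and 0 with no filter or equal medians, 6 with a stricter filter or quantile normalization, 1 with only the groups compared or with the first set alone, a setting added after seeing the data, 21 with array weights, 7 with the mean over probe sets or with trend and robust settings, and 0 to 11 with 1 array left out, the highest without Ikzf2-/- 2. It was 0 for Ikzf4-/- against WT (0 to 1 with 1 array left out) and 0 for the difference of the Ikzf2-loss changes (1 with array weights or without both arrays, 0 to 4 with 1 array left out). The causes were not tested. With the replicate block no member passed: for Ctsw the difference was -0.78 (limma adjusted p = 0.205) in dKO against WT and -0.60 (adjusted p = 0.412) in dKO against Ikzf4-/-. Serpinb9 was under the filter with only Ikzf2-/- and WT 4 to 6 in the fit and has no value there.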
